A study of Mus musculus with 15 samples.

Results

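The glutathione S-transferases (Gst), UDP-glucuronosyltransferases (Ugt) and sulfotransferases (Sult) are the enzymes that join a small polar group to drugs, toxins, lipid peroxides and hormones. Their transcripts were measured in mouse kidney after folic acid injury and in mouse lung after bleomycin injury, with and without an antibody against leptin. Members were chosen by name alone, as the protein-coding genes whose symbols begin with Gst and a class letter (a, m, p, t, k or o), with Ugt or with Sult, each followed by a number. The rule took 65 of the 56748 genes in the table, namely 22 Gst, 22 Ugt and 21 Sult genes, and 7 non-coding genes with matching symbols were left out.

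Cytosolic Gst enzymes attach glutathione to electrophiles, and the products are trimmed to mercapturic acids by enzymes of the kidney proximal tubule. Ugt enzymes sit in the endoplasmic reticulum and transfer glucuronic acid, or in the Ugt3 and Ugt8 families other sugars, from a UDP carrier. Sult enzymes are cytosolic and transfer a sulfonate group from the donor PAPS. The proximal tubule is one of the main sites of conjugation outside the liver, and airway club cells are a known site in the lung.

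All mice were male, wild-type C57Bl/6, and each group held 3 libraries of whole-organ RNA. WTK kidneys came from mice given vehicle at an age of 10 to 12 weeks, with tissue taken on day 28. The labels name no antibody for these mice. IgGK and LepK kidneys came from mice given 1 dose of folic acid at 200 mg/kg and then, for 21 days, either control IgG or LepAb, an antibody that neutralizes leptin, at 10 mg/kg, with tissue taken on day 28 at an age of 10 to 12 weeks at injection. IgGL and LepL lungs came from 12-week-old mice given intratracheal bleomycin at 1.5 units/kg and then the same 2 antibodies for 14 days, with tissue taken on day 14. No lung library without bleomycin and no antibody-treated kidney without folic acid was analysed here. LepAb is a human antibody. In RNA from a whole organ, fewer cells of a type and less RNA per cell cannot be told apart.

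Total counts ranged from 25913969 to 38924788 per library, and the 65 genes held between 0.528% and 0.548% of them in WTK, 0.342% and 0.407% in IgGK, 0.453% and 0.488% in LepK, and 0.0738% and 0.108% in lung. Some kidney libraries carried transcripts of neighbouring or other organs. The summed level of 6 adrenal cortex markers was 725 and 962 CPM in IgGK replicates 1 and 2, against 6.43 to 19.8 CPM in the other 7 kidney libraries. The summed level of 8 hepatocyte markers was 1180 CPM in LepK replicate 2, with albumin (Alb) at 726 CPM, against 188 to 328 CPM for the sum in the other 8. *Cyp11b1* and *Cyp21a1* of the adrenal list were at 0 in every WTK library and *Fgb*, *Cyp3a11* and *Tat* of the hepatocyte list were at 0 in at least 1 kidney library. Results that rest on these libraries are given with and without them.

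The organs' own markers were present. None of 12 proximal tubule markers was at 0 in any kidney library, and none of 5 club cell and 6 alveolar type 2 markers was at 0 in any lung library. The organic anion transporter gene *Slc22a6* of the proximal tubule list was at 0 in every lung library.

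To compare levels between genes, the deposited FPKM values were used, which are scaled to gene length. In uninjured kidney the glucuronosyltransferase *Ugt2b38* was the highest of the 65 at 529 ± 30.9 FPKM (SD, n = 3). *Ugt3a2* at 439 ± 15.8 FPKM and the mu class transferase *Gstm1* at 367 ± 19.1 FPKM followed. *Sult1d1*, a sulfotransferase of catechols and dopamine, stood at 194 ± 9.38 FPKM and *Ugt2b37* at 162 ± 34.4 FPKM. The ranges of *Ugt2b38*, *Ugt3a2* and *Gstm1* did not overlap, at 501 to 562, 421 to 449 and 345 to 382 FPKM, whereas those of *Sult1d1* and *Ugt2b37* were 184 to 203 and 126 to 194 FPKM.

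Summed over all 65 genes, the WTK libraries gave 2371 ± 52.6 FPKM, the IgGK libraries 1355 ± 116 and the LepK libraries 1884 ± 98.9 (SD, n = 3). The 10 Ugt2 genes gave 29.7% of that sum in WTK, 16.3% in IgGK and 16.4% in LepK. The 7 mu class Gst genes gave 20.8%, 34.5% and 33.2%. The share of the glucuronosyltransferases was lower, and that of the mu class higher, in both injured groups than in WTK. Of the 65 genes, 29 had a mean of at least 1 FPKM over the 9 kidney libraries, 19 over the 6 lung libraries and 18 in both. At the other end, 8 genes had no count in any of the 15 libraries, namely *Sult2a2*, *Sult2a5*, *Sult2a6*, *Sult2a7*, *Sult3a1*, *Sult3a2*, *Ugt2a1* and *Ugt2a2*.

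Comparisons within an organ used counts scaled to normalized CPM, that is CPM with library sizes corrected for composition by TMM factors. Called genes are those past 0.5 in log2 fold change, in either direction, that also had an adjusted p under 0.05 in edgeR's quasi-likelihood test. In kidney 47 of the 65 genes had enough counts to be tested and 18 did not. Several weakly expressed members, such as *Sult4a1*, *Ugt1a2* and *Ugt1a10*, were tested because of their counts in the injured groups only. *Sult2a3* was tested because of its counts in WTK only. The numbers of members called therefore describe these libraries and support nothing further.

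After folic acid injury 10 of the 22 Ugt genes were called lower than in uninjured kidney, 2 were called higher, 3 were not called and 7 were not tested. Between IgGK and WTK, 29 of the 47 tested members were called, 11 higher and 18 lower, where 37.3% of all 19593 tested genes were called, 21.7% higher and 15.6% lower. Of the 15 tested Ugt genes 10 fell and 2 rose, of the 10 tested Sult genes 4 fell and 4 rose, and of the 22 Gst genes 4 fell and 5 rose. The median log2 fold change was -1.12 for Ugt, 0.24 for Gst and 0.66 for Sult, beside 0.04 for all tested genes. With counts scaled by library size alone, which moved the median of all tested genes to 0.48, 16 members were called higher and 13 lower.

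**Figure D1:**
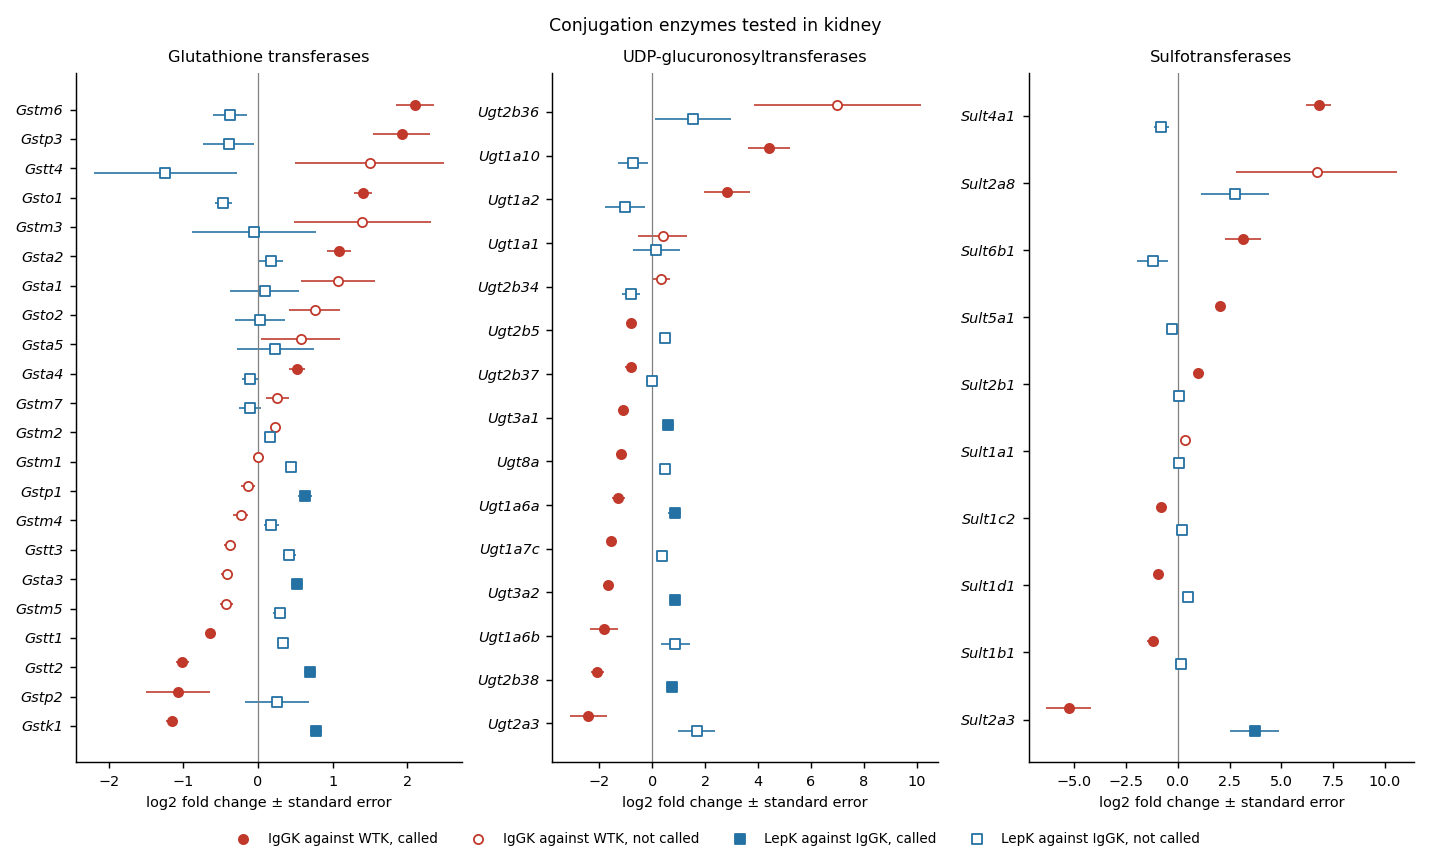
Log2 fold change (x axis) of each of the 47 members tested in kidney, with bars of 1 standard error, for IgGK against WTK (circles) and LepK against IgGK (squares), 3 libraries a group. Filled symbols were called. *Ugt2b38* lies at -2.08 and 0.74 and *Gstm6* at 2.10 and -0.38 in the respective comparisons.

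The Ugt2 genes lie in a cluster on chromosome 5 and glucuronidate steroids, bile acids and drugs. *Ugt2b38* (chr5:87557801-87572062, GRCm39, minus strand) read 1289, 1199.7 and 1142 normalized CPM in the WTK libraries. It read 365, 166 and 331 in IgGK and 592, 389 and 462 in LepK. The WTK and IgGK groups were far apart, and the lowest of all was IgGK replicate 2. The log2 fold change of IgGK against WTK was -2.08 ± 0.24 (SE, adjusted p = 1.02e-05).

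Its neighbour *Ugt2b37* (chr5:87388352-87402663) read 289, 445 and 376 normalized CPM in WTK, 237, 139 and 258 in IgGK and 236, 176 and 209.5 in LepK. The groups WTK and IgGK did not overlap, although WTK replicate 1 and IgGK replicate 3 came close. Its log2 fold change was -0.81 ± 0.21 (adjusted p = 0.00521), a smaller drop than that of *Ugt2b38*. *Ugt2b5* fell by 0.79 on the log2 scale (adjusted p = 0.00172) and *Ugt2a3*, a weakly expressed bile acid glucuronosyltransferase, fell by 2.42 (adjusted p = 0.0103). *Ugt2b34* read 13.8, 9.91 and 8.62 in WTK and 12.9, 21.01 and 6.91 in IgGK (log2 fold change 0.34 ± 0.34, adjusted p = 0.431), and within IgGK it was higher in replicates 1 and 2, the libraries with adrenal transcripts. Its log2 fold change was -0.64 without those 2 libraries, the opposite sign.

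The Ugt2b genes are close copies, which bears on how far reads can tell them apart. Of all stretches of 100 bases in the annotated transcripts, 24.2% for *Ugt2b38* and 24.7% for *Ugt2b5* occur also in another gene, so their counts are less certain than those of unique genes. The upstream sequences let *Ugt2b38*, which fell more, be compared with *Ugt2b37* and *Ugt2b5*, which fell by similar, smaller amounts. Each is the 250 bases before the start, 5′ to 3′, from RefSeq on GRCm38.p6.

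Ugt2b38 (chr5:87424204-87424453, minus strand): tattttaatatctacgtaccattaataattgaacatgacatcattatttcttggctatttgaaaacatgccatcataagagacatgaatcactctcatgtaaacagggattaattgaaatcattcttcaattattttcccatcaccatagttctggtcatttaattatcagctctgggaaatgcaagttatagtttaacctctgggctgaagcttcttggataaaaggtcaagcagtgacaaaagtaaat

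Ugt2b37 (chr5:87254789-87255038, minus strand): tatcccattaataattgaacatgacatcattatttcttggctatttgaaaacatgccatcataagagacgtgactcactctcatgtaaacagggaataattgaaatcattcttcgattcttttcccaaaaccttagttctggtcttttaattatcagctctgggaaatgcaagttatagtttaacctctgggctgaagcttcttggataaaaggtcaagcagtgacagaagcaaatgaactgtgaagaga

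Ugt2b5 (chr5:87140341-87140590, minus strand): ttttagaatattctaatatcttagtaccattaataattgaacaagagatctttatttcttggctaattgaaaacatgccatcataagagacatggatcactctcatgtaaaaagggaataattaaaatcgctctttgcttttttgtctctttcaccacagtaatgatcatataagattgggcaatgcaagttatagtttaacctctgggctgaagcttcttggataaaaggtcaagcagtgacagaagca

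In a global alignment 85.2% of the aligned columns were identical between *Ugt2b37* and *Ugt2b38*, 81.5% between *Ugt2b5* and *Ugt2b38*, and 73.0% between *Ugt2b5* and *Ugt2b37*. The upstream sequence of *Ugt2b34*, which was not called, was 52.1% identical to that of *Ugt2b38*, beside 52.7% for *Ugt3a1* of another family.

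The Ugt3 enzymes use other UDP sugars than glucuronic acid, and both genes fell. *Ugt3a2* read 1684, 1684 and 1575 normalized CPM in WTK, 614, 408 and 539.9 in IgGK and 1167, 808 and 824 in LepK. The 3 groups did not overlap, and its log2 fold change was -1.66 ± 0.16 (adjusted p = 2.11e-06). The gene overlaps an unnamed gene in the annotation, and the libraries do not keep the strand, so a part of its reads could belong to the other gene. *Ugt3a1* fell by 1.12 on the log2 scale (adjusted p = 4.05e-04).

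*Ugt1a7c* was the highest Ugt1 gene in both organs, and the Ugt1 family glucuronidates bilirubin, phenols and many drugs. It read 220.4, 233 and 209.9 normalized CPM in WTK, 81.0, 71.4 and 71.0 in IgGK and 111, 81.5 and 95.6 in LepK. WTK stood far above both injured groups, with a log2 fold change of -1.57 ± 0.10 between IgGK and WTK (adjusted p = 1.59e-07). *Ugt1a6a* and *Ugt1a6b*, enzymes of planar phenols, also fell, by 1.29 and 1.84 on the log2 scale. *Ugt1a10* read 0.166, 0.0395 and 0.0361 normalized CPM in WTK and 1.29, 3.09 and 0.896 in IgGK, and *Ugt1a2* 0.249, 0 and 0.252 and 1.06, 2.06 and 0.520. Both were tested only because of their counts in the injured groups, so their calls describe these libraries, and both were highest in IgGK replicate 2. The Ugt1a genes differ in their first exon and share the others, so the split of reads among them is uncertain. *Ugt1a2* was no longer called when IgGK replicates 1 and 2 were left out.

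*Ugt8a*, which makes galactosylceramide for membranes and myelin, fell in the same way. It read 124, 133 and 116 normalized CPM in WTK and 67.9, 41.9 and 53.1 in IgGK, without overlap, and the log2 fold change was -1.20 ± 0.16 (adjusted p = 4.73e-05).

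Of the sulfotransferases, *Sult1d1* and *Sult1c2* fell and *Sult1a1* was not called. *Sult1d1* read 605, 579.8 and 547 normalized CPM in WTK, 333, 249 and 306 in IgGK and 479.9, 348 and 426 in LepK. Every IgGK library lay below every library of the other groups, and the log2 fold change of IgGK against WTK was -0.96 ± 0.12 (adjusted p = 2.48e-05). *Sult1c2* read 63.8, 79.5 and 70.8 in WTK and 42.7, 37.3 and 41.5 in IgGK, a log2 fold change of -0.82 ± 0.097 (adjusted p = 1.42e-05). *Sult1a1*, the main phenol sulfotransferase, was not called (log2 fold change 0.33 ± 0.12, adjusted p = 0.0331). *Sult1b1*, which sulfates thyroid hormones, fell by 1.23 on the log2 scale (adjusted p = 0.00230).

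The sulfotransferases that rose started from low levels. *Sult5a1* read 2.04, 1.70 and 2.13 normalized CPM in WTK and 8.44, 8.49 and 7.40 in IgGK (log2 fold change 2.05 ± 0.19, adjusted p = 1.84e-06). *Sult2b1*, the cholesterol sulfotransferase, read 2.24, 1.34 and 1.88 in WTK and 3.23, 3.63 and 3.93 in IgGK (log2 fold change 0.98 ± 0.25, adjusted p = 0.00556). *Sult4a1*, known from brain and without an established substrate, had 2 counts over the 3 WTK libraries and 337 over the 3 IgGK libraries. The ratio of the groups in CPM was 176.5, with an exact 95% interval of 48.5 to 1464 that covers counting error only. In the other direction *Sult2a3*, a hydroxysteroid sulfotransferase, had 42 counts in WTK and 1 in IgGK, a ratio of 40.1 with an interval of 6.81 to 1621. It was tested only because of its counts in WTK, so its call describes these libraries. *Sult6b1* was called higher as well, with 6 counts in WTK and 71 in IgGK.

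Of the glutathione transferases, the alpha and mu classes had 12 members. In IgGK against WTK 3 of them were called higher, 0 lower and 9 not, beside 21.7% higher and 15.6% lower of all tested genes. Among the 9, *Gsta3* (-0.42 ± 0.082, adjusted p = 8.52e-04) and *Gstm5* (-0.42 ± 0.087, adjusted p = 0.00117) were lower in every IgGK library by less than the fold threshold, and with library size alone their log2 fold changes were 0.025 and 0.017. *Gsta2*, an alpha class enzyme that also reduces lipid peroxides, read 72.5, 93.0 and 84.4 normalized CPM in WTK, 171, 212 and 146 in IgGK and 154, 211 and 232 in LepK. The injured groups lay above WTK and overlapped each other, and the log2 fold change of IgGK against WTK was 1.08 ± 0.16 (adjusted p = 8.82e-05). *Gsta4*, which conjugates the lipid peroxidation product 4-hydroxynonenal, rose by 0.53 ± 0.11 on the log2 scale (adjusted p = 9.98e-04) and lost its call when IgGK replicate 2 was left out. In annotated transcripts 28.4% of the 100-base stretches of *Gsta2* occur also in *Gsta1* or related genes.

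*Gstm1*, the most abundant transferase, read 617, 665 and 678 normalized CPM in WTK and 691, 626 and 651 in IgGK. The groups overlapped, with a log2 fold change of 0.0062 ± 0.068 (adjusted p = 0.9496) whose sign changed between fits. Its weakly expressed neighbour *Gstm6* rose from 1.29, 2.37 and 1.80 to 6.20, 9.92 and 7.34 normalized CPM, a log2 fold change of 2.10 ± 0.25 (adjusted p = 1.58e-05).

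*Gsto1*, an omega class enzyme that reduces dehydroascorbate and arsenic compounds, was low in WTK and rose. It read 22.6, 18.1 and 22.3 normalized CPM in WTK, 53.3, 61.6 and 51.6 in IgGK and 33.6, 43.4 and 43.6 in LepK, with no overlap among the groups. The log2 fold change of IgGK against WTK was 1.40 ± 0.12 (adjusted p = 9.96e-07). It overlaps *Cfap43* in the annotation, whose reads cannot be kept apart by strand. Of the pi class, *Gstp3* rose by 1.92 ± 0.38 on the log2 scale at a low level, and *Gstp1* was not called (-0.13 ± 0.097, adjusted p = 0.269).

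*Gstk1*, the kappa class member found in mitochondria and peroxisomes, read 74.7, 72.7 and 76.8 normalized CPM in WTK, 35.8, 34.0 and 31.1 in IgGK and 63.6, 53.5 and 55.2 in LepK. LepK stood between the other groups without overlap, and the log2 fold change of IgGK against WTK was -1.15 ± 0.080 (adjusted p = 2.21e-07). *Gstt2* read 354, 395 and 347 in WTK and 197, 159 and 186 in IgGK (log2 fold change -1.01 ± 0.085, adjusted p = 8.32e-07). *Gstt1*, a theta class enzyme of small halogenated compounds, fell by 0.64 on the log2 scale (adjusted p = 4.34e-06). The other 2 theta genes, *Gstt3* (-0.37 ± 0.083) and the barely detected *Gstt4* (1.50, adjusted p = 0.230), were not called.

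**Figure D2:**
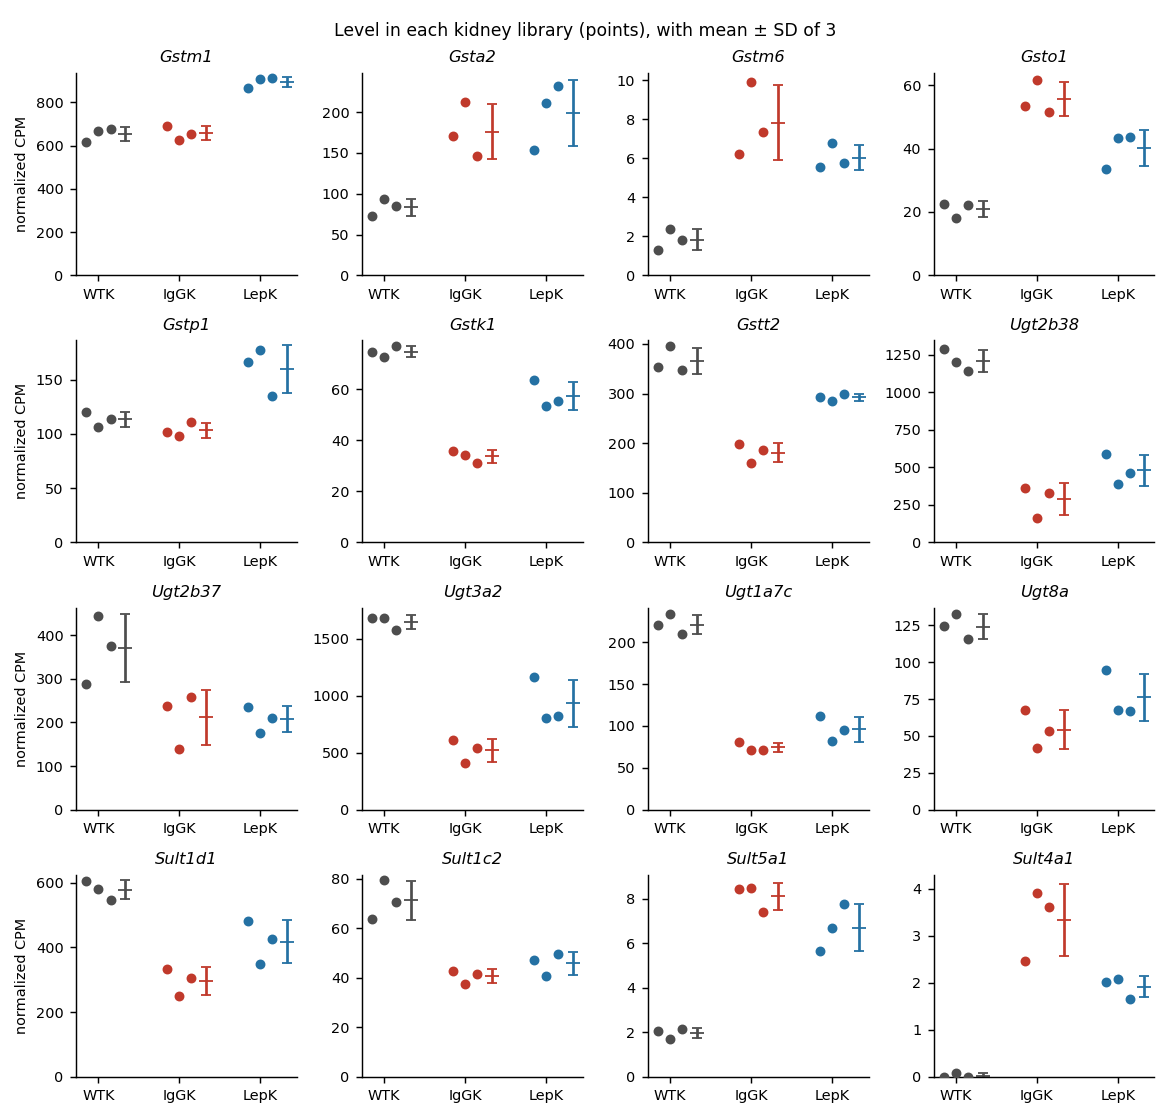
Normalized CPM (y axis, from 0) of 16 members in each kidney library, 3 points a group, with the mean and SD beside them. For *Gstk1* and *Gsto1* the LepK libraries lie between WTK and IgGK, while for *Gstm1* they lie above both.

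Markers of cell types moved beside these enzymes. All 12 proximal tubule markers were called lower in IgGK than in WTK, and their summed level was 45244 to 46970 CPM in WTK, 15692 to 23648 in IgGK and 29799 to 37155 in LepK. All 8 macrophage and all 7 fibroblast markers were called higher in IgGK, with sums of 168 to 197 and 153 to 203 CPM in WTK against 2022 to 2666 and 1610 to 1864 CPM in IgGK. Of 6 injured tubule markers 5 were called higher (148 to 158 CPM in WTK, 888 to 949 in IgGK), as were 5 of 6 adipocyte markers (21.6 to 80.9 and 339 to 581 CPM), with 1 lower. No marker of these 5 lists was at 0 in a kidney library. The part of these cell types in the enzyme results was not tested.

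Without IgGK replicates 1 and 2, fewer genes of any kind were called. That fit leaves 1 IgGK library, which is assumed to vary like the other groups. *Ugt2b38*, *Ugt3a2*, *Ugt1a7c*, *Sult1d1*, *Gsta2*, *Gsto1* and *Gstk1* were still called. *Ugt2b37*, *Ugt2b5*, *Ugt2a3*, *Ugt1a6b*, *Sult1b1* and *Sult2a3* were not. With LepK replicate 2 left out as well, *Ugt2b37* was called again. *Gstp2*, a pi class gene with 105 counts in WTK and 65 in IgGK, lost its call in 5 of 6 fits that left out 1 library.

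The antibody comparison asked whether conjugation enzymes differed in injured kidney when leptin was neutralized. Between LepK and IgGK, 9 of the 47 tested members were called higher and 0 lower, where 10.4% of all tested genes were called, 4.38% higher and 5.99% lower. The 9 were *Gsta3*, *Gstp1*, *Gstt2*, *Gstk1*, *Ugt2b38*, *Ugt3a1*, *Ugt3a2*, *Ugt1a6a* and *Sult2a3*. An unadjusted p under 0.05, in either direction, was found for 22 of the 47 and for 6441 of all 19593 tested genes. DESeq2 called 8 members higher and 0 lower, and 949 higher and 1383 lower of all tested genes. The median log2 fold change of the tested members was 0.18, beside -0.01 for all tested genes. Scaling by library size alone gave 4 higher and 1 lower, and moved the median of all tested genes to -0.19.

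*Gstk1* and *Gstt2* had the smallest adjusted p of the Gst genes. *Gstk1* was higher in LepK by 0.77 ± 0.080 on the log2 scale (adjusted p = 1.39e-04). *Gstt2* read 292, 286 and 299 normalized CPM in LepK, above every IgGK library, a log2 fold change of 0.69 ± 0.084 (adjusted p = 3.34e-04). Both calls held in each of the 6 fits that left out 1 library and without IgGK replicates 1 and 2.

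*Gstp1* and *Gsta3* were called in LepK against IgGK and not in IgGK against WTK. *Gstp1*, a pi class enzyme that also binds the kinase JNK, read 119.6, 106 and 114 normalized CPM in WTK, 102, 97.5 and 111 in IgGK and 166, 178 and 135 in LepK. The LepK libraries lay above all others, with a log2 fold change of 0.63 ± 0.096 against IgGK (adjusted p = 0.00107). Without IgGK replicates 1 and 2 the call was lost. Of its 100-base stretches 25.1% occur also in *Gstp2* or a pseudogene.

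*Gsta3*, an alpha class enzyme, read 92.9, 99.1 and 99.3 in WTK, 74.7, 77.4 and 66.3 in IgGK and 97.5, 101 and 116 in LepK. The IgGK libraries were the lowest, and LepK and WTK overlapped. The log2 fold change of LepK against IgGK was 0.53 ± 0.081 (adjusted p = 0.00109), close to the threshold, and the call was lost without IgGK replicate 3 or LepK replicate 3.

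*Gstm1* was higher in every LepK library than in any other kidney library, at 865, 907 and 910.3 normalized CPM. Its log2 fold change of 0.45 ± 0.068 (adjusted p = 0.001005) stayed under the fold threshold. *Sult1d1* at 0.50 ± 0.12 (adjusted p = 0.0126) and *Ugt8a* at 0.49 ± 0.16 (adjusted p = 0.0499) fell just short of the fold threshold, and *Gsta3* was just past it.

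Of the glucuronosyltransferases, *Ugt3a2* had the clearest difference, 0.84 ± 0.15 on the log2 scale (adjusted p = 0.00265), and its call held in each fit that left out 1 library. *Ugt2b38* had a log2 fold change of 0.74 ± 0.23 (adjusted p = 0.0379), and its LepK and IgGK ranges were separated by little, with 389 in LepK replicate 2 and 365 in IgGK replicate 1. The call was lost in 4 of 6 fits that left out 1 library. *Ugt3a1* (0.61 ± 0.20, adjusted p = 0.0472) was lost in 4 of 6 as well, and *Ugt1a6a* (0.86 ± 0.25, adjusted p = 0.0276) in 3 of 6. *Sult2a3* rested on 16 counts in LepK against 1 in IgGK, and was tested only because of its counts in WTK. Its call held in 1 of 6 fits that left out 1 library, and was lost with DESeq2 and with a replicate block.

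The members that had risen with injury were not called between LepK and IgGK. *Gsto1* was lower in every LepK library than in any IgGK library, with a log2 fold change of -0.46 ± 0.12 (adjusted p = 0.0138) that fell short of the fold threshold. *Gsta2* had 0.17 ± 0.16 (adjusted p = 0.483) and *Gstm6* -0.38 ± 0.23 (adjusted p = 0.293).

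In the same comparison 10 of 12 proximal tubule markers were called higher, and 7 of 8 macrophage and 6 of 7 fibroblast markers lower, with summed levels in LepK of 613 to 987 and 481 to 865 CPM. Of 6 distal nephron and collecting duct markers 4 were called higher (3311 to 3812 CPM in IgGK, 4249 to 4630 in LepK), and 5 of 6 injured tubule markers (403 to 564 CPM in LepK) and 1 of 6 adipocyte markers (97.0 to 266 CPM) were called lower. The part of these cell types in the enzyme values was not tested. Without IgGK replicates 1 and 2, which leaves 1 IgGK library, fewer genes of any kind were called. *Gsta3*, *Gstk1*, *Gstt2* and *Ugt3a2* were still called higher in LepK. Without LepK replicate 2 as well, *Ugt2b38* was called beside them, and again fewer genes of any kind were called than with all libraries.

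The antibody-treated injured kidney was then set beside the uninjured one. This comparison shares its libraries with the comparisons above, so the same values enter more than once. Between LepK and WTK, 10 members were called higher and 7 lower, where 22.5% of all tested genes were called, 15.2% higher and 7.3% lower. Scaling by library size alone gave 17 higher and 5 lower. Over all tested genes it gave 4782 higher and 512 lower, against 2984 and 1431 with TMM scaling, and moved the median from 0.03 to 0.29. The 7 lower members were *Ugt2b38*, *Ugt2b37*, *Ugt3a2*, *Ugt1a7c*, *Ugt8a*, *Sult1b1* and *Sult1c2*, and each of these calls held in every fit that left out 1 library.

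The mean of *Ugt2b38* in LepK was 39.7% of the WTK mean, where that in IgGK was 23.7%. The corresponding values were 56.6% and 31.6% for *Ugt3a2*, 43.5% and 33.7% for *Ugt1a7c*, and 72.4% and 51.3% for *Sult1d1*. *Gstk1* stood at 76.9% and 45.1%, and *Gstt2* at 80.1% and 49.5%. *Ugt2b37* was as low in LepK as in IgGK, at 56.0% and 57.2%. On the rising side *Gsto1* stood at 192% and 265%, *Gsta2* at 239% and 212%, and *Gstm6* at 331% and 430%.

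The calls of *Sult2a8* and *Ugt2b36* as higher in LepK than in WTK rested on 1 library. *Sult2a8*, a hydroxysteroid and bile acid sulfotransferase of liver, had no count in WTK, and its normalized CPM was 0, 0.572 and 0.723 in IgGK and 0, 8.95 and 0 in LepK. *Ugt2b36* read 0, 0.486 and 1.10 in IgGK and 0, 4.49 and 0.148 in LepK, and *Ugt2b1* and *Ugt2b35*, which were not tested, read 5.53 and 2.88 in LepK replicate 2 and at most 0.57 elsewhere in kidney. These 4 genes were highest in the library with the most hepatocyte transcripts, and neither call was made without it or without any 1 of the WTK libraries. Over the 3 libraries of a group, *Sult2a8* had 267 counts in LepK and 0 in WTK, at least 94.0-fold higher when the WTK group as a whole is set at 3 counts, all 267 of them in LepK replicate 2.

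**Figure D3:**
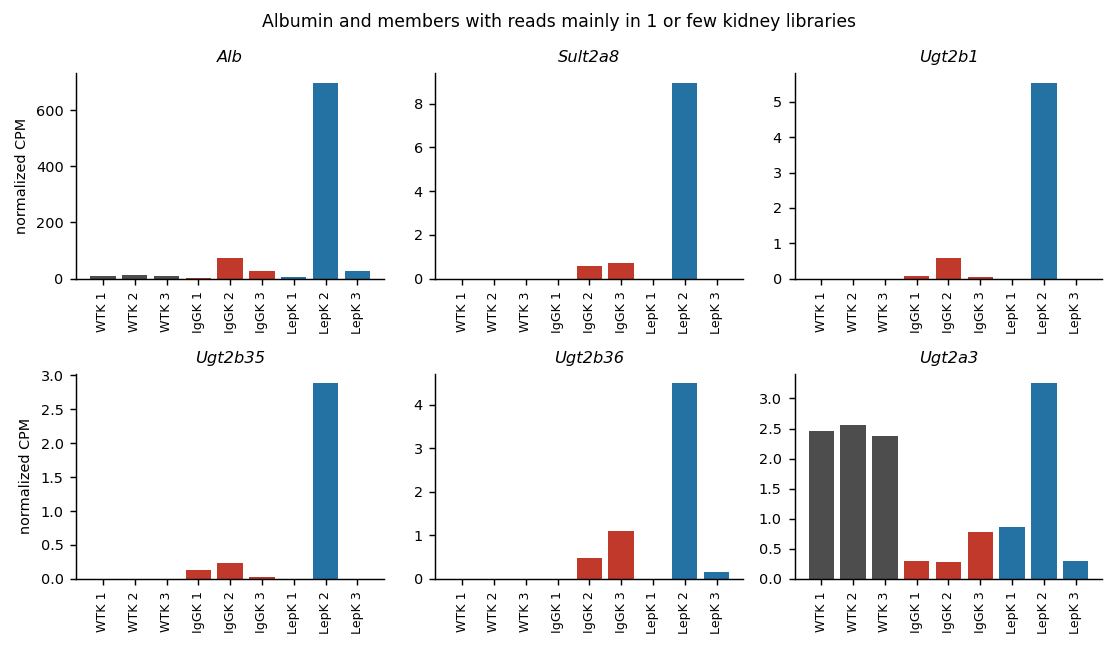
Normalized CPM (y axis, from 0) of albumin and of 5 members in each of the 9 kidney libraries (bars). LepK replicate 2 is the highest library in each panel, with albumin at 697 and *Sult2a8* at 8.95.

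*Ugt2a3* shares this feature in part. It read 0.856, 3.25 and 0.295 normalized CPM in LepK, and 2.45, 2.57 and 2.38 in WTK, so the gene was also present in kidneys with few hepatocyte transcripts.

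In lung the make-up of these enzymes was different. Over the 6 lung libraries *Gstm1* was highest at a mean of 82.5 FPKM, followed by *Gsto1* at 59.4, *Gstp1* at 40.3, *Gstm2* at 33.3 and *Gsta4* at 27.6 FPKM. *Gsto1* gave most of the omega class, which made up 21.99% of the summed level of all members in IgGL, against 1.68% in IgGK. The sum over all 65 genes was 310.2 ± 27.1 FPKM in IgGL and 390 ± 46.0 in LepL (SD, n = 3). No count was found in lung for 20 of the 65 genes, among them *Ugt2b37*, *Ugt2b38*, *Ugt3a1* and *Sult1c2*.

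In an edgeR fit of the injured libraries of both organs, 27 of 46 tested members were higher in IgGK than in IgGL and 3 lower, where 50.5% of all 21488 tested genes were called, 26.3% higher and 24.2% lower. The lower ones were *Gsto1* (log2 fold change -1.61 ± 0.19), *Gstp3* (-1.20 ± 0.28) and *Sult1a1* (-0.92 ± 0.23). *Gsta2* was higher in kidney by 7.85 ± 0.25 and *Sult1d1* by 5.65 ± 0.33 on the log2 scale. *Ugt2b38*, with 28325 counts in IgGK and 0 in IgGL, was at least 11290-fold higher, and *Sult1c2*, with 4039 and 0, at least 1610-fold. With IgGK replicates 1 and 2 left out, which leaves 1 IgGK library, fewer genes of any kind were called. Most of the called members were again higher in IgGK. The organ, the injuring agent, the day and the scaling between organs cannot be told apart here.

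**Figure D4:**
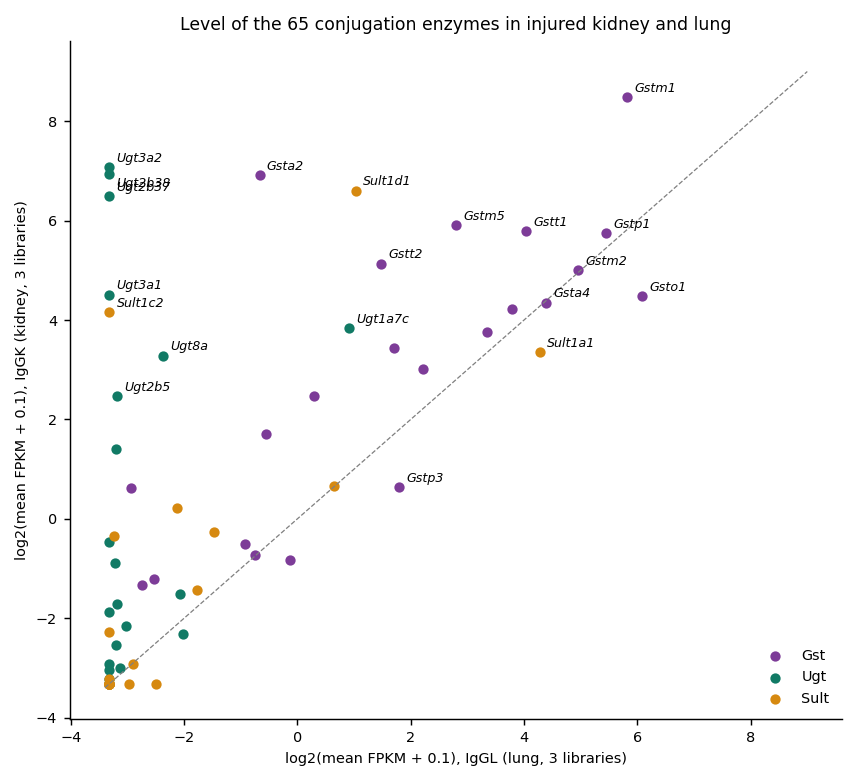
Mean level of the 65 members on a log2(FPKM + 0.1) scale in IgGL (x axis) and IgGK (y axis), 3 libraries each, coloured by family, with the line of equal level dashed. *Ugt2b38*, *Ugt3a2* and *Ugt2b37* lie at the left edge, with mean levels of 122, 135 and 89.9 FPKM in IgGK and 0 FPKM in IgGL.

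Between LepL and IgGL 2 of the 29 members tested in lung were called, both higher, where 4.14% of all 19617 tested genes were called, 1.78% higher and 2.36% lower. *Gsta2* was weakly expressed and read 0.942, 0.722 and 1.06 normalized CPM in IgGL and 2.42, 3.30 and 3.80 in LepL. The groups did not overlap, with a log2 fold change of 1.80 ± 0.33 (adjusted p = 0.0337). For *Sult2b1* the IgGL libraries gave 1.72, 1.25 and 1.50 and the LepL libraries 3.95, 3.48 and 4.11, with a log2 difference of 1.37 ± 0.27 (adjusted p = 0.0369). *Sult2b1* overlaps *Lmtk3* and *Gm31597* in the annotation, whose reads cannot be kept apart by strand. Both calls were lost in 5 of 6 fits that left out 1 lung library, and held without IgGL replicate 1, where 10 members were called higher. Over all tested genes those 5 fits called 0 to 18 higher and 0 to 4 lower. The fit without IgGL replicate 1 called 1937 higher and 1602 lower of 20435, so these member counts followed those of all genes.

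Several better expressed members came close to the threshold. *Gstm1* read 156, 109 and 98.1 normalized CPM in IgGL and 165, 256 and 265 in LepL, without overlap (log2 fold change 0.92 ± 0.22, adjusted p = 0.0516). *Gsta4* had 0.68 ± 0.16 (adjusted p = 0.0503) and *Gstt1* 0.89 ± 0.24 (adjusted p = 0.0655). *Ugt1a7c* was lower in every LepL library, at 5.45, 4.82 and 4.46 against 6.68, 13.6 and 12.6 in IgGL (log2 fold change -1.16 ± 0.28, adjusted p = 0.0516). None of these 4 differences passed the test. DESeq2, run as an alternative, called 8 members higher and 1 lower. Over all 19617 tested genes it called 1236 higher and 1102 lower, against 349 and 463 in edgeR.

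*Gsto1*, the second highest member in lung, read 154, 169.7 and 279 normalized CPM in IgGL and 147, 155 and 139.9 in LepL. The groups overlapped, and IgGL replicate 3 stood apart from the other 5 libraries. Its log2 fold change was -0.45 ± 0.20 (adjusted p = 0.199).

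Markers of lung cell types also differed between the groups. The sum of 5 club cell markers was 7377 to 9682 CPM in IgGL and 12650 to 24538 in LepL, with 2 of the 5 called higher. Most of it was *Scgb1a1*, at 6756 to 8555 and 11342 to 22231 CPM, while the groups overlapped for *Scgb3a1* and *Bpifa1*. The sum of 6 alveolar type 2 markers was 6493 to 12845 and 18674 to 25452 CPM, with 3 of the 6 called higher. The sum of 7 fibroblast markers was 7194 to 8088 CPM in IgGL and 3144 to 4449 in LepL, with 5 of the 7 called lower. For 8 macrophage markers the sum was 3795 to 6952 CPM in IgGL and 8134 to 8596 in LepL, although 2 of the 8 were called lower and 0 higher. Most of that sum was *Lyz2*, at 2123 to 5390 and 6956 to 7521 CPM. The part of these lung cell types in the enzyme values was not tested.

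A direct test of the difference between the organs, which subtracts the lung antibody effect from the kidney one, called 7 of 46 tested members, 3 higher and 4 lower, where 6.66% of all tested genes were called, 3.18% higher and 3.49% lower. For *Gstp1* the log2 fold change under antibody was 0.63 ± 0.096 in kidney and -0.28 ± 0.093 in lung, a difference of 0.94 ± 0.15 (adjusted p = 0.00780). For *Ugt1a7c* it was 0.37 ± 0.10 and -1.16 ± 0.28, a difference of 1.56 ± 0.29 (adjusted p = 0.0150). In these 2 genes and in *Gstm5* the antibody groups were higher in kidney and lower in lung, although within an organ only the kidney difference of *Gstp1* was called. In kidney *Ugt1a7c* (adjusted p = 0.0234) and *Gstm5* (adjusted p = 0.0328) missed the fold threshold alone, and in lung none of the 3 had an adjusted p under 0.05. *Gstm5* overlaps *4933431E20Rik* in the annotation, whose reads cannot be kept apart by strand.

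The difference had the opposite sign for 4 genes, none of which was called between LepK and IgGK. The difference was -1.62 ± 0.31 for *Gsta2* (adjusted p = 0.0154) and -1.47 ± 0.38 for *Gstm6* (adjusted p = 0.0368). It was -1.30 ± 0.33 for *Sult2b1* (adjusted p = 0.0359) and -0.76 ± 0.21 for *Gsta4* (adjusted p = 0.0481). The most abundant members in lung, *Gstm1* and *Gsto1*, were not called for a difference between organs (adjusted p = 0.301 for *Gstm1*). Without IgGK replicates 1 and 2, which leaves 1 IgGK library, all 7 differences kept their sign and none was called, with adjusted p from 0.155 to 0.284. In that fit 4 of all 24096 tested genes were called. *Ugt2b38* and other members with no count in lung were among the 46 tested, and none of them was called. Without lung counts their values say nothing of an antibody effect in lung.

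**Figure D5:**
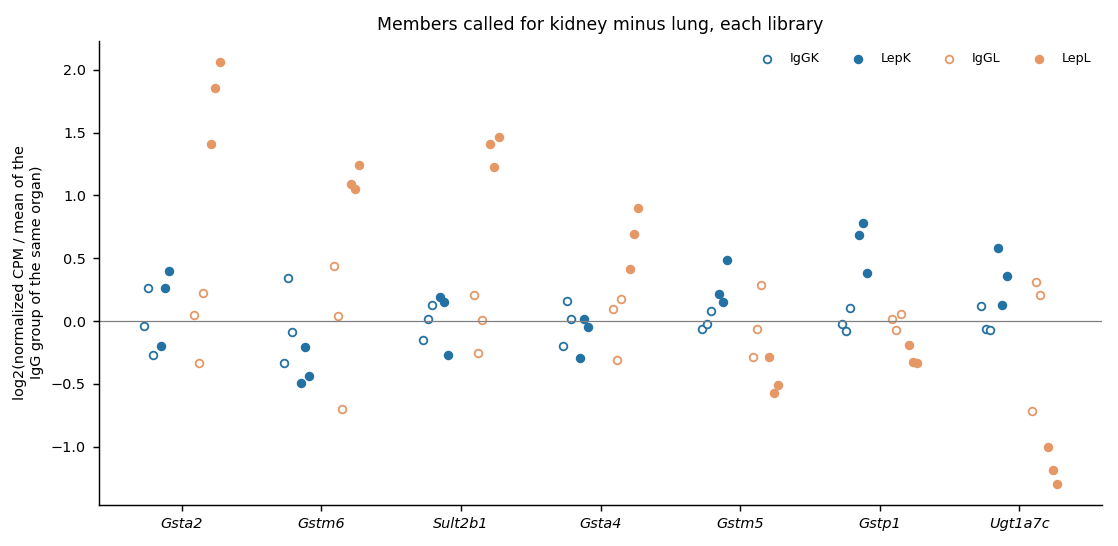
Level of the 7 members called for kidney minus lung in each library, as log2 of normalized CPM over the mean of the IgG group of the same organ (y axis). Open symbols are IgGK or IgGL, filled symbols LepK or LepL. *Gsta2* in LepL, at 2.42 to 3.80 normalized CPM, lies above all IgGL libraries, and *Gstp1* lies above its IgG group in kidney and below it in lung.

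Enzymes and transporters that serve conjugation were described by lists chosen by function. Of 14 genes for glutathione supply and other glutathione enzymes, 9 fell and 3 rose in IgGK against WTK, and 8 rose and 1 fell in LepK against IgGK, beside 37.3% and 10.4% of all tested genes called in the respective comparisons. The largest change between IgGK and WTK was that of *Hpgds*, a glutathione-dependent prostaglandin D synthase, at a log2 fold change of 3.22 ± 0.24, and its value for LepK against IgGK was -0.79 ± 0.21. *Dpep1*, *Ggt1* and *Nat8*, which turn glutathione conjugates into mercapturic acids in the proximal tubule, were chosen after their values were seen. They fell by 1.91, 1.41 and 1.76 on the log2 scale in IgGK and were higher in LepK than in IgGK by 0.72 ± 0.12, 0.64 ± 0.11 and 0.99 ± 0.15.

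Of the 4 genes for UDP-glucuronic acid supply and glucuronide cleavage, 3 fell in IgGK, led by *Ugp2* (log2 fold change -1.02 ± 0.078), which makes UDP-glucose, and 0 were called between LepK and IgGK in edgeR's test. All 4 had an adjusted p between 0.00244 and 0.0212 there, with log2 fold changes from -0.35 to 0.43 that fell short of the fold threshold. Of 7 tested genes for PAPS supply and sulfatases 4 fell and 1 rose, the largest change being that of the sulfatase gene *Arsb* (-1.69 ± 0.11), and 2 were called higher and 1 lower in LepK against IgGK. Of 5 conjugate exporters 3 rose and 2 fell in IgGK, with *Abcc3*, an exporter of glucuronides on the basolateral membrane, at 2.74 ± 0.17 and -0.74 ± 0.15 in the respective comparisons. In lung 28 genes of the 4 lists were tested, and 1 was called, the microsomal glutathione transferase gene *Mgst2* (log2 fold change 0.91 ± 0.20, adjusted p = 0.0444), beside 4.14% of all tested genes.

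The upstream sequences of the members were searched for 2 regulatory motifs. A 300-base window, from 250 bases before to 50 after a start, was found in RefSeq (GRCm38.p6) for 56 of the 65 members. The antioxidant response element core TGACNNNGC, on either strand, occurred in 12.4% of all 32851 windows and in 4.55% of the 66 windows of members. The core was found in 3 of the 56 members, *Gsta3*, *Gstm5* and *Gstm7*. It occurred in 0 of the 9 members called higher and 0 of the 15 called lower in IgGK against WTK that had a window. The palindromic site of the tubule and liver factor HNF1 occurred in 3 of all windows and in no member. Its shorter form GTTAAT is contained in the palindrome and was added after the data were seen. It occurred on either strand in 7.10% of all windows and in 21.2% of the 66 windows of members. By gene it was in 14 of the 56 members, 5 of the 15 called lower and 1 of the 9 called higher. Among the 14, *Sult2a3*, *Sult2a4*, *Sult2a5* and *Sult2a6* share the bases after it, so the 14 are not independent. All of these are matches of letters, not binding sites.

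The upstream 250 bases of 3 members with a match are shown, with the matches in capitals. *Gsta3* carries both motifs, and *Sult1d1* and *Ugt3a1* are 2 of the abundant kidney members that fell with injury.

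Gsta3 (chr1:21240335-21240584, plus strand): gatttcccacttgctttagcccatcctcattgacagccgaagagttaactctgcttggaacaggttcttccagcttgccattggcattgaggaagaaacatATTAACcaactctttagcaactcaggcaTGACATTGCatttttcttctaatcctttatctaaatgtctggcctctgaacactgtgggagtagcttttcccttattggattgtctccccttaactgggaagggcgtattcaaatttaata

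Sult1d1 (chr5:87569007-87569256, minus strand): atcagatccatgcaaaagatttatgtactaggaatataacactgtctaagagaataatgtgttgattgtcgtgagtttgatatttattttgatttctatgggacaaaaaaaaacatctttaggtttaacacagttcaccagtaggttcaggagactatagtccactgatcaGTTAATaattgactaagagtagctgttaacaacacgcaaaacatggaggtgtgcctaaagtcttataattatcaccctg

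Ugt3a1 (chr15:9279579-9279828, plus strand): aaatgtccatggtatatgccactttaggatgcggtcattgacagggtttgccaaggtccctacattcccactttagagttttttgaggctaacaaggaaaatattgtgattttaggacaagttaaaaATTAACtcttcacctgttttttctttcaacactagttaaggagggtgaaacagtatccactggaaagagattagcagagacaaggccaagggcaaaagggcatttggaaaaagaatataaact

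In *Gsta3* the antioxidant match began 121 bases and the GTTAAT match 149 bases before the start. The GTTAAT match began 79 bases before the start of *Sult1d1* and 123 bases before that of *Ugt3a1*. In *Gsta3* and *Ugt3a1* it lies on the other strand and so reads ATTAAC.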

How the data were processed

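The authors deposited 1 table of RNA-seq counts per gene and FPKM values for the 15 libraries, made from poly(A) RNA with non-directional libraries. Reads of members that overlap another gene, among them *Gsta3*, *Gstm5*, *Sult1a1* and *Sult2b1*, cannot be kept apart by strand. The submitters' processing notes name GRCm39 (mm39) and DESeq2, and the aligner and counter are not given in the sources used here. Columns of the authors' own comparisons, which hold fold changes and p-values, were not used.

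The deposited counts were tested in edgeR 4.0.16 (R 4.3.3, limma 3.58.1) with the quasi-likelihood test after filterByExpr (minimum count 10, total 15) and TMM scaling, in 1 fit over 9 kidney libraries, 1 over 6 lung libraries and 1 over the 12 antibody-treated libraries of both organs. P-values were adjusted by Benjamini-Hochberg over all genes tested. The deposited FPKM values served to set levels of different genes side by side and to describe sums and class shares in each group and organ. No test was run on them. Labels call the libraries replicates, and p-values measure the spread between them. Replicates of a group differed by more than sampling noise. Alternatives were RLE scaling, library size alone, DESeq2 1.42.0, other filters and fold thresholds, a replicate block and leaving out libraries. The fit was tested on simulated data.

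Named genes were the highest member of each class in each organ, up to 8 called members per direction and comparison with a level of at least 1 CPM, all members called for kidney minus lung and the largest change of each pathway list, 33 members in all, and genes named outside that rule were chosen after their values were seen. Members and lists were chosen with earlier results of these data known. Of the genes listed, 1 was absent from the table. Upstream sequences are RefSeq's, on GRCm38.p6, while gene positions are on GRCm39.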

Additional observations from a re-analysis of the deposited data

Results flagged for a closer look

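For 7 members the kidney antibody effect less the lung one passed edgeR's test of the difference itself, on the log2 scale. The difference was -1.62 for *Gsta2* (0.17 in kidney, 1.80 in lung), -1.47 for *Gstm6* (-0.38 and 1.12), -1.30 for *Sult2b1* (0.040 and 1.37) and -0.76 for *Gsta4* (-0.10 and 0.68). It was 0.77 for *Gstm5* (0.29 in kidney, -0.45 in lung), 0.94 for *Gstp1* (0.63 and -0.28) and 1.56 for *Ugt1a7c* (0.37 and -1.16). Without IgGK replicates 1 and 2, the libraries with adrenal transcripts, none of the 7 differences was called and all kept their sign.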

How the results depend on the processing

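Depth was not tested as a limit beyond the filter on low counts, and 3 libraries a group limit every comparison. Counts below are of members called. With library size alone the median log2 fold change over all tested genes went from 0.04 to 0.48 in IgGK against WTK (all genes called higher and lower 4253 and 3057, then 7803 and 1178) and from -0.01 to -0.25 in the kidney minus lung difference. For LepK against IgGK, 9 higher became 4 with library size alone, 16 with no fold threshold, 1 with an absolute log2 fold change over 1 and 5 with only the 2 groups compared. Fewer members, and fewer genes of any kind, were called without IgGK 1 and 2, an alternative chosen after seeing the data that leaves 1 IgGK library. The 0 lower became 1 with library size alone, 1 with no filter and 1 with no fold threshold. For LepK against WTK, 10 higher became 17 with library size alone, and 7 lower became 11 with no fold threshold and 3 with a log2 fold change over 1. Over all tested genes 2984 higher became 4782 with library size alone. There 1431 lower became 3650 with no fold threshold and 302 with a log2 fold change over 1. For LepL against IgGL, 2 higher became 8 with DESeq2 and 8 with no filter, and 0 lower became 1 with each. Over all tested genes, 349 higher and 463 lower became 1236 and 1102 with DESeq2 and 1515 and 1173 with no filter. For kidney minus lung, 3 higher and 4 lower became 0 and 0 without IgGK 1 and 2, and 0 and 0 without LepK 2 as well, where 1 IgGK library is left and few genes of any kind were called (2 higher and 2 lower, then 1 and 2). The cause was not tested.

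The labels name no pairing of the samples by replicate number. Deviations from the group means correlated at 0.18, 0.17 and -0.035 between same-numbered IgGK and LepK libraries. Between IgGK and LepK libraries with different numbers the correlations were -0.19 to 0.029. In the other comparisons within an organ, same-numbered libraries correlated at -0.055 to 0.071. With a replicate block IgGK against WTK gave 12 higher and 17 lower, LepK against IgGK 8 higher and 0 lower, LepK against WTK 10 higher and 8 lower, LepL against IgGL 0 higher, kidney minus lung 2 higher and 2 lower (4 lower without the block), and IgGK against IgGL 27 higher and 1 lower (3 without the block). Over all tested genes the block gave 4208 higher and 3027 lower for IgGK against WTK. It gave 882 and 1237 for LepK against IgGK, and 2946 and 1454 for LepK against WTK. For LepL against IgGL all genes called went from 349 higher and 463 lower to 1 and 3. For kidney minus lung they went from 683 and 749 to 530 and 694, and for IgGK against IgGL from 5651 and 5194 to 4818 and 4510.

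Leaving out 1 library at a time gave 9 to 12 higher and 17 to 17 lower for IgGK against WTK, 5 to 11 and 0 to 2 for LepK against IgGK, 8 to 12 and 7 to 9 for LepK against WTK, 0 to 10 and 0 to 2 for LepL against IgGL, 2 to 3 and 0 to 5 for kidney minus lung, and 26 to 28 and 3 to 3 for IgGK against IgGL. The lung comparison gave 10 higher and 2 lower without IgGL replicate 1, and 0 of either without any 1 of the other lung libraries. Over all tested genes it gave 1937 higher and 1602 lower without IgGL replicate 1. Without any 1 of the others it gave 0 to 18 higher and 0 to 4 lower.

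Signs changed for *Gsta3* (0.025), *Gstm5* (0.017), *Gstt3* (0.068) and *Gstp1* (0.31) in IgGK against WTK with library size alone. The Gstm1 log2 fold change, IgGK against WTK, ranged from -0.036 to 0.047 when 1 library was left out, and was -0.00146 without IgGK 1 and 2 and -0.00134 without LepK 2 as well. The Sult2a8 log2 fold change, LepK against WTK, ranged from 0 (without LepK replicate 2) to 10.05 when 1 library was left out, and was 0 without IgGK 1 and 2 and LepK 2. The Ugt2b34 log2 fold change, IgGK against WTK, ranged from -0.12 to 0.66 when 1 library was left out, and was -0.64 without IgGK 1 and 2 and -0.64 without LepK 2 as well.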
